A study of Rattus norvegicus with 4 samples.

Results

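The urea cycle and ammonia handling genes examined here were 10 named genes, *Nags*, *Cps1*, *Otc*, *Slc25a15*, *Ass1*, *Asl*, *Arg1*, *Arg2*, *Gls2*, and *Glud1*, chosen by function from 16982 genes listed in all 4 tables of rat liver RNA. All 10 were found, each as 1 annotated row per library, and 9 of them exceeded a TPM value (StringTie's length-corrected share of transcripts) of 2 in every library. *Arg2* was below this limit in every library. Liver RNA was sequenced from 4 wild-type male Wistar rats, aged 6 weeks when purchased, with 1 rat for each condition. A rat inhaled 4.5% sevoflurane or 6% desflurane for 6 hours, and the control of each agent was sacrificed as soon as it lost consciousness, so the controls had also inhaled the agent. Food and water had been withdrawn from all rats 2 hours before anesthesia, so the 6 h rats had been without food for 6 hours longer than the controls. Food withdrawal, time under anesthesia, and the agent cannot be told apart. According to the study, all rats were sacrificed at about the same time of day. Because each condition had 1 library, the difference of an agent from its control has no test, and p-values are given only where both 6 h libraries were set against both controls. The 2 control livers were therefore used as the only measure of how far livers differed without 6 hours of anesthesia.

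Liver removes the ammonia released from amino acids by converting it to urea. In mitochondria of periportal hepatocytes, CPS1 makes carbamoyl phosphate from ammonium and bicarbonate after activation by N-acetylglutamate, the product of NAGS, and OTC joins it to ornithine to form citrulline. ORC1, encoded by *Slc25a15*, exchanges ornithine and citrulline across the inner mitochondrial membrane. In the cytosol, ASS1 joins citrulline to aspartate, which carries the other nitrogen of urea, ASL cleaves argininosuccinate into arginine and fumarate, and ARG1 splits arginine into urea and ornithine. Ammonia is fed to the cycle by liver glutaminase (GLS2) and by glutamate dehydrogenase (GLUD1), whereas ARG2 is the mitochondrial arginase found mainly outside the liver. Glucagon, glucocorticoids, fasting, and protein intake are known to regulate the cycle enzymes at the level of transcription.

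The libraries were close to each other in depth. The ratio of FPKM, a value corrected for gene length and library size, to average coverage corresponded to 4.59, 4.47, 5.40, and 5.13 Gb of aligned sequence in the order sevoflurane control, sevoflurane 6 h, desflurane control, and desflurane 6 h, and this order is kept for all groups of 4 values. The average coverage of the 9 expressed genes was between 71.0, for *Nags* in the sevoflurane control, and 2864, for *Ass1* after desflurane. The 9 hepatocyte marker genes added up to 147205 to 163401 TPM, and the lowest of them on average, *Hnf4a*, had 222 TPM. The sevoflurane control library stood apart in 8 genes of pancreatic acinar cells, which added up to 38.6, 0.521, 1.42, and 3.33 TPM. *Prss1*, *Pnlip*, and *Ctrb1* were at 0 in the other 3 libraries, and each 6 h library is also compared with the other control below. In these tissue samples, fewer cells of a type and less RNA per cell cannot be told apart.

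Promoter sequences are shown for *Asl* and *Ass1*, which passed the limits of the study with desflurane, and for *Cps1* and *Otc*, the mitochondrial enzymes of the cycle, which did not pass with either agent. Each is the 250 bases before a RefSeq transcription start in the GRCr8 build, written 5′ to 3′ on the strand of the gene, and capitals mark a TATA box. The windows lie at chr12:32295658-32295907 (plus strand) for *Asl*, chr3:35149480-35149729 (plus strand) for *Ass1*, chr9:76063613-76063862 (plus strand) for *Cps1*, and chrX:15202474-15202723 (minus strand) for *Otc*.
Asl: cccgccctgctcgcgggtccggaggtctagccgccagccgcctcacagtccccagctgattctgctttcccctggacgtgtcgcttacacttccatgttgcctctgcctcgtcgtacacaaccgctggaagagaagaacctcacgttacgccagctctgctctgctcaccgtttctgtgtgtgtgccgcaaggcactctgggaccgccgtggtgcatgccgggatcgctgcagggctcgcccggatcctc
Ass1: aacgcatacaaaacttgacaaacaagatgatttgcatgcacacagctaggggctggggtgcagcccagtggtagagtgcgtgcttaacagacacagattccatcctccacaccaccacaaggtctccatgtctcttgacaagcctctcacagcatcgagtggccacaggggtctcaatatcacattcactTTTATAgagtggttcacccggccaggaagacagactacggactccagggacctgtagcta
Cps1: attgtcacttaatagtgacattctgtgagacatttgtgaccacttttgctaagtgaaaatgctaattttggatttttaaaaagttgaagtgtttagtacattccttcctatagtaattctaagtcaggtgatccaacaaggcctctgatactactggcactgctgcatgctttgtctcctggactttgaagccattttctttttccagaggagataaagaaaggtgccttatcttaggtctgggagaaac
Otc: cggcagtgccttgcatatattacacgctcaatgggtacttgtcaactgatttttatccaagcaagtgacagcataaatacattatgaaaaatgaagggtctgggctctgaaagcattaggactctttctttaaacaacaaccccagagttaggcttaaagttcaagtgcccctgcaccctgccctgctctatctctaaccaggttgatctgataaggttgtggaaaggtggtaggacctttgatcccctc
The RefSeq table held 9 windows for 8 of the 10 genes, with 2 for *Gls2*, and those of *Arg1* and *Arg2* were not analysed here. Their G and C content ranged from 38% in *Cps1* and 44.4% in *Otc* through 51.2% in *Ass1* and 64% in *Asl* to 78.8% in *Glud1*. Of 5 motifs searched on both strands, the CREB core motif TGACG was present in 18.2% of all 33469 rat windows of this length, the C/EBP site TTGCNNAA in 9.22%, the glucocorticoid receptor hexamer AGAACA in 17.5%, the CCAAT box CCAAT in 34.0%, and the TATA box TATAAA in 12.9%. *Ass1* had a TATA box on the reverse strand 60 bases before the start. *Gls2* had TGACG 224 and 166 bases and a CCAAT box 93 bases before the start in 1 of its windows, and *Slc25a15* had a CCAAT box 209 bases before the start. The motifs searched were not found in the windows of *Asl*, *Cps1*, *Otc*, *Nags*, or *Glud1*, and 0 of the 9 windows held TTGCNNAA or AGAACA. These matches are letters in a short window and were not shown to be binding sites. In these libraries, rows assembled by StringTie over *Ass1* and *Slc25a15* began at least 6903 and 27481 bases before the start annotated in rn6. Whether the windows hold the starts used in these livers was not tested.

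*Asl*, *Arg1*, and *Ass1*, the cytosolic enzymes of the cycle, were the members past 2-fold with at least 1 agent. The limits of the study were applied to each comparison (more than 2 TPM in the higher library, and more than 2-fold apart). Under these limits *Asl* was upregulated with both agents, *Arg1* with sevoflurane, and *Ass1* with desflurane, whereas 0 of the 10 genes were downregulated. Because TPM values are corrected for gene length, levels could also be compared between genes.

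*Asl* (chr12:30160998-30178346, plus strand, rn6, as for all gene positions here) encodes argininosuccinate lyase and was the least abundant of the 5 cycle enzymes in every library. Its level was 113 TPM in the sevoflurane control, 270 TPM after sevoflurane, 93.4 TPM in the desflurane control, and 231 TPM after desflurane. Both 6 h libraries were therefore above both controls, and the lower 6 h level was 2.04-fold the higher control level. *Asl* was 2.38-fold higher with sevoflurane and 2.47-fold higher with desflurane than in the respective control, and the folds were 2.89 and 2.04 when the controls were exchanged. The controls themselves differed by 1.21-fold. Among the 10 genes, *Asl* alone was more than 2-fold above both controls in both 6 h libraries by TPM. This pattern was seen in 0.57% of the 9993 genes that exceeded 2 TPM in at least 1 library. For *Asl* the pattern depended on the scale. By FPKM, the desflurane 6 h library (75.8) was less than 2-fold above the sevoflurane control (44.4). The same held for the average coverage, which was 204, 457, 175, and 389.

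*Arg1* (chr1:21525421-21537870, plus strand) encodes the cytosolic arginase that releases urea. Its level was 726, 1646, 659, and 1298 TPM, again without overlap between controls and 6 h libraries. It was 2.27-fold higher with sevoflurane, and with desflurane its fold change of 1.97 was just below the limit. Against the other control the folds were 2.50 and 1.79, and the controls differed by 1.1-fold. *Arg1* was the most abundant of the 10 genes after sevoflurane, whereas it was in the third place in the other 3 libraries. Because *Arg1* is also transcribed in macrophages, the macrophage and Kupffer cell markers are given beside it. The 9 markers found added up to 665, 426, 518, and 631 TPM, and were lowest in the sevoflurane 6 h library. The part of macrophages in the level of *Arg1* was not tested.

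*Ass1* (chr3:10327433-10369126, minus strand) encodes argininosuccinate synthase, which takes aspartate into the cycle. It was present at 979, 1440.4, 745, and 1699.9 TPM, and both 6 h levels were above both controls. It was 1.47-fold higher with sevoflurane and 2.28-fold higher with desflurane. The controls differed by 1.31-fold, the widest difference between controls among the 9 expressed genes. When the controls were exchanged, *Ass1* was 1.93-fold higher with sevoflurane and 1.74-fold higher with desflurane, so that it no longer passed with desflurane and the order of the agents was the opposite.

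**Figure D1:**
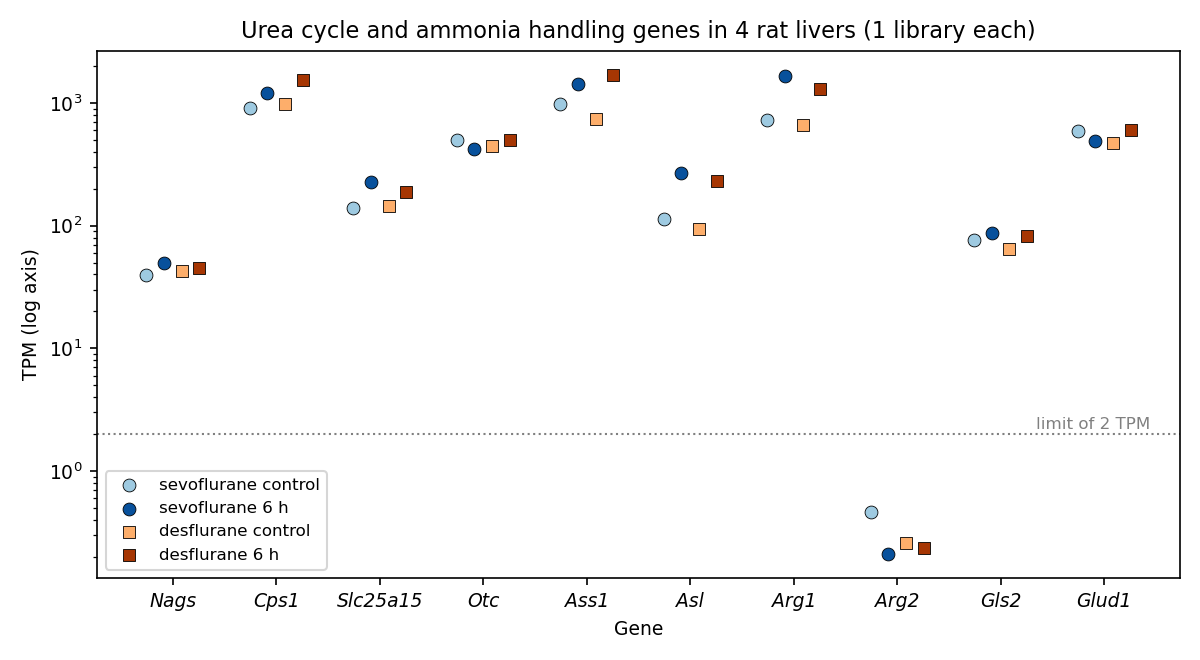
Levels of the 10 genes (TPM, log axis) in the 4 livers, with 1 library for each point and no error bars. Circles are sevoflurane and squares are desflurane, and light symbols are controls. The dark symbols are above both light symbols for *Nags*, *Cps1*, *Slc25a15*, *Ass1*, *Asl*, *Arg1*, and *Gls2*, and *Arg2* lies below the limit of 2 TPM.

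The mitochondrial members differed from each other. *Cps1* (chr9:74113437-74235368, plus strand), which encodes the entry enzyme of the cycle, was present at 902, 1210.2, 981, and 1548 TPM. Both 6 h libraries were above both controls, by 1.34-fold with sevoflurane and 1.58-fold with desflurane against the respective control. The smallest of the 4 ratios between a 6 h library and a control was 1.23, whereas the controls differed by 1.09-fold.

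*Otc* (chrX:13524804-13601074, minus strand) encodes the next enzyme and showed no separation. Its level was 504, 424, 447, and 500.1 TPM, and the 6 h libraries overlapped with the controls. The fold change of *Otc* was 0.842 for sevoflurane and 1.12 for desflurane, whereas the other control gave 0.948 and 0.993. The controls differed by 1.13-fold, which was about as wide as these differences. *Cps1* was thus 1.79, 2.85, 2.19, and 3.10 times the level of *Otc*, and *Arg1* was 1.44, 3.88, 1.47, and 2.60 times the level of *Otc*, both ratios being higher in the 6 h libraries than in the controls.

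*Slc25a15* (chr16:74534070-74552667, plus strand), the ornithine carrier that links the mitochondrial and cytosolic steps, was present at 140.2, 227, 143, and 187 TPM. Its controls were the closest of the 10 genes, with a 1.02-fold difference, and both 6 h libraries were higher. It was 1.62-fold higher with sevoflurane and 1.30-fold higher with desflurane, and 1.59-fold and 1.332-fold higher than the other control. *Slc25a15* was more abundant than *Asl* in both controls and less abundant than *Asl* in both 6 h libraries, and the ratio of *Asl* to *Slc25a15* was 0.808, 1.19, 0.652, and 1.24.

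*Nags* (chr10:90085559-90089693, plus strand), which encodes the enzyme making the activator of CPS1, was the least abundant of the 9 expressed genes, at 39.5, 50.02, 42.7, and 44.8 TPM. Both 6 h libraries were above both controls by this scale, but the narrowest ratio was 1.05, less than the 1.08-fold difference between the controls. The order of the desflurane pair changed with the scaling: the log2 difference was 0.07 by TPM, -0.06 after median-of-ratios scaling, and -0.01 by FPKM. The ratio of *Cps1* to *Nags* was 22.8, 24.2, 23.0, and 34.6, with the desflurane 6 h library above the other 3.

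Neither gene that supplies ammonia passed the limits. *Gls2* (chr7:2605719-2621853, plus strand), which encodes the liver glutaminase, was present at 76.1, 87.0, 64.7, and 82.7 TPM. The 6 h libraries were above both controls, but the narrowest ratio of 1.09 was less than the 1.18-fold difference between the controls. *Glud1* (chr16:10661911-10695555, plus strand), which encodes the enzyme releasing ammonium from glutamate, was present at 589, 489, 475, and 606 TPM. Its 6 h libraries overlapped with the controls, with a fold change of 0.831 for sevoflurane and 1.28 for desflurane. Against the other control, the fold change of *Glud1* was 1.03 for both agents, and the controls differed by 1.24-fold.

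*Arg2* (chr6:102311097-102338406, plus strand) had 0.460, 0.211, 0.257, and 0.234 TPM at an average coverage between 0.357 and 0.828. Differences between such values were not detectable at this depth. The sevoflurane control, which was highest, was also the library with the acinar transcripts, and the part of these in the value was not tested.

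**Figure D2:**
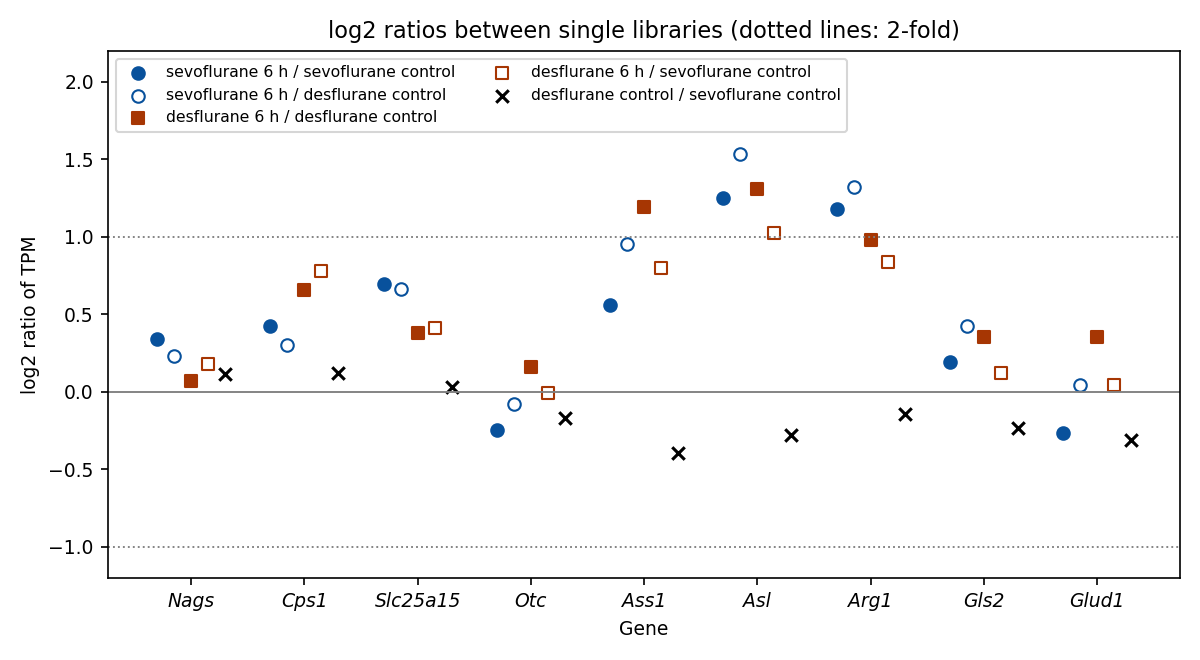
Ratios of TPM between single libraries (log2) for the 9 expressed genes. Filled symbols compare a 6 h library with its own control, open symbols with the other control, crosses compare the controls, and dotted lines mark 2-fold. *Asl* lies above the upper line in all 4 comparisons, *Arg1* in the sevoflurane comparisons, and *Otc* and *Glud1* lie on either side of 0 or close to it.

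The order of levels was similar in the 4 libraries, with small exchanges between neighbours. *Ass1*, *Cps1*, and *Arg1* held the highest 3 places in every library, followed by *Glud1* and *Otc*, then by *Slc25a15* and *Asl*, and then by *Gls2*, *Nags*, and *Arg2*. *Ass1* was the highest in the sevoflurane control and after desflurane, *Cps1* in the desflurane control, and *Arg1* after sevoflurane. The top pair differed by 1.08-fold in the sevoflurane control, 1.14-fold after sevoflurane, 1.32-fold in the desflurane control, and 1.098-fold after desflurane. Between the controls, the same 3 genes differed by 1.09-fold to 1.31-fold. A gap wider than any difference between controls of expressed genes separated *Otc* from the next gene in the controls, at 3.59-fold and 3.12-fold. Among all 16982 genes, *Arg1* was in place 130 and 133 in the controls and in place 66 and 80 in the 6 h libraries, and *Asl* was in place 800 and 940 in the controls and in place 338 and 401 in the 6 h libraries.

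Summed over the 5 enzymes *Cps1*, *Otc*, *Ass1*, *Asl*, and *Arg1*, the level was 3224, 4990.4, 2925, and 5277 TPM. The sum was 0.407%, 0.622%, 0.375%, and 0.649% of the TPM of all annotated genes, so that both 6 h livers were above both controls. The levels of the enzymes were not in proportion across the libraries. The ratio of *Ass1* to *Asl* was 8.64, 5.34, 7.98, and 7.37, and the ratio of *Arg1* to *Cps1* was 0.804, 1.36, 0.672, and 0.839, with the sevoflurane 6 h library at one end of both ratios.

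The members were then read against all genes. With sevoflurane, 2 of the 9 expressed genes, *Asl* and *Arg1*, passed as upregulated, where 2.23% of the 9754 genes tested did so, and 0 passed as downregulated, where 3.3% did so. With desflurane, 2 of the 9, *Ass1* and *Asl*, passed as upregulated, where 2.79% of 9855 genes did so, and 0 were downregulated, where 1.48% did so. After median-of-ratios scaling, the background with desflurane was 2% upregulated and 1.91% downregulated, and *Ass1* and *Asl* still passed. Against the other control, *Asl* and *Arg1* passed as upregulated with sevoflurane (2.52% of all genes) and *Asl* with desflurane (2.84%), while 0 were downregulated (2.59% and 1.58%). Between the controls, 0 of the 9 genes differed by more than 2-fold, where 2.34% of all genes did so. These comparisons share libraries and are not independent of each other.

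Both 6 h libraries were above both controls for 7 of the 9 genes, *Cps1*, *Ass1*, *Asl*, *Arg1*, *Nags*, *Slc25a15*, and *Gls2*, where this held for 33.3% of 9993 genes. Both were below both controls for 0 of the 9, where this held for 13.3%. After median-of-ratios scaling, *Nags* left the pattern and 6 of the 9 genes remained, and the background was 22.4% above and 22.7% below. When both 6 h libraries were set against both controls in 1 fit over the 9993 genes (limma, log2(TPM + 1), agents taken as replicates), 0 of the 9 members passed an adjusted p of 0.05, where 0.06% of all genes passed upward and 0% downward. The largest difference was that of *Asl*, at 1.27 ± 0.15 (log2, SE, limma adjusted p = 0.103), and *Arg1* was at 1.08 ± 0.17 (adjusted p = 0.138) and *Ass1* at 0.87 ± 0.19 (adjusted p = 0.207). At an unadjusted p of 0.05, 5 of the 9 members were higher, *Asl*, *Arg1*, *Ass1*, *Slc25a15*, and *Cps1*, where 9.7% of all genes were higher and 3.53% lower. The other 4, *Gls2*, *Nags*, *Glud1*, and *Otc*, had differences between -0.04 and 0.27. When 1 library was left out, the difference was 1.13 to 1.41 for *Asl*, 0.91 to 1.25 for *Arg1*, and 0.68 to 1.07 for *Ass1*. Such a fit has 1 library on one side, which is then assumed to vary like those on the other side.

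The median change of the 10 genes on the log2(TPM + 1) scale was 0.38 with sevoflurane and 0.37 with desflurane. The median of the 9136 genes with more than 2 TPM in all libraries was 0.05 and 0.11. With sevoflurane, 7 of the 10 members were higher and 3 were lower, where 5213 of the 9136 genes were higher and 3923 lower. With desflurane, 9 members were higher and 1 was lower, where 6125 of the 9136 genes were higher and 3011 lower. *Arg2*, which was below the limit, was among the lower members with both agents. The median change of the 10 genes between the controls was -0.19, as desflurane control minus sevoflurane control.

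**Figure D3:**
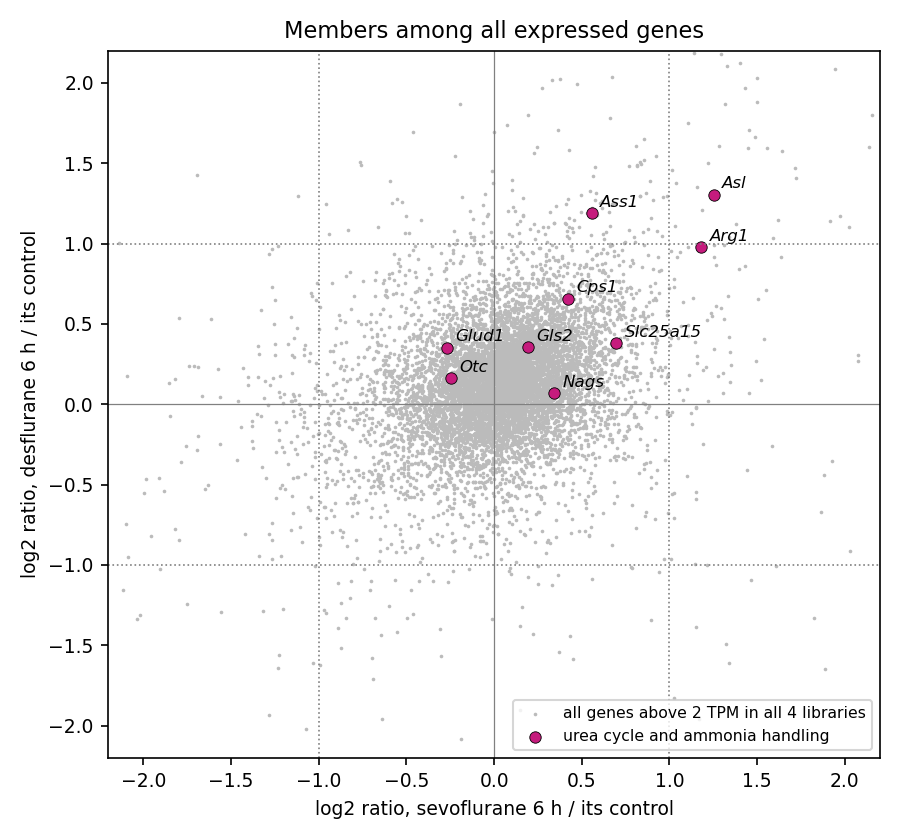
Log2 ratio of TPM with sevoflurane (horizontal axis) and with desflurane (vertical axis), each against its own control, for the 9 expressed genes and all 9136 genes with more than 2 TPM in all libraries, of which 39 lie outside the axes. Dotted lines mark 2-fold, and *Asl* lies beyond both upper lines.

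The 6 h livers were also compared directly. Relative to sevoflurane, the desflurane 6 h level was higher for *Cps1* (log2 difference 0.35), *Glud1* (0.31), *Otc* (0.24), and *Ass1* (0.24). It was lower for *Arg1* (-0.34), *Slc25a15* (-0.28), *Asl* (-0.23), *Nags* (-0.16), and *Gls2* (-0.07). None of the 9 genes differed by more than 2-fold between the 6 h livers, where 3.93% of 9829 genes did so in either direction.

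By the distance of log2 levels centred over the 4 libraries, the 5 genes whose pattern was most like the mean of the 5 cycle enzymes, among 9586 genes ranked, were *Dnase2b*, *Tmem203*, *Timm8a1*, *Aldh1a1*, and *Dcaf13*, at root mean square distances of 0.039 to 0.042 log2 units. *Aldh1a1*, a retinal dehydrogenase, was at 152, 236, 145, and 248 TPM. The members themselves were farther from this mean, from 0.12 for *Ass1* to 0.40 for *Otc*. With 4 libraries, such likeness is a description.

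Genes connected to the cycle were grouped by their known roles. The counts below stand beside the 2.23% and 2.79% of all genes upregulated with sevoflurane and desflurane and the 3.3% and 1.48% downregulated. Those shares were taken over genes above 2 TPM in either library compared, whereas the lists also held genes below this limit. With either agent, 9 of the 10 genes found for nitrogen and aspartate supply were above it. For glutamine synthesis and ammonium transport this was 8 of 11 genes, and for ornithine and arginine use 11 of 13. Of 12 genes listed for nitrogen and aspartate supply, 10 were found, and *Slc25a12* and *Slc25a13* were not, so their levels are not known. Among the 10 genes found, 2 were upregulated with sevoflurane and 3 with desflurane, and 0 were downregulated. *Got1*, the cytosolic aspartate aminotransferase, was at 38.8, 189, 40.4, and 147 TPM, which was 4.88-fold higher with sevoflurane and 3.65-fold higher with desflurane, with no overlap. *Slc25a22*, a mitochondrial glutamate carrier, was at 65.8, 166, 56.6, and 117 TPM, with folds of 2.53 and 2.06, and of 2.93 and 1.77 against the other control, so that desflurane then no longer passed. *Ca5a*, the mitochondrial carbonic anhydrase that provides bicarbonate to CPS1, was at 19.9, 21.4, 12.8, and 33.5 TPM, and was 2.63-fold higher with desflurane only against its own low control. In contrast, *Got2*, the mitochondrial aminotransferase, was at 240.4, 235, 222, and 238 TPM, and *Mdh2* was at 181, 213, 172, and 184 TPM, both with less than a 2-fold difference. The median change of the list was 0.27 with sevoflurane and 0.55 with desflurane, and 0.59 and 0.33 against the other control.

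Glutamine synthesis in pericentral hepatocytes removes the ammonia that escapes the cycle. Of 11 genes of glutamine synthesis and ammonium transport, 0 passed with sevoflurane and 1 with desflurane, with medians of -0.02 and 0.12. *Slc1a2*, a glutamate transporter, was at 14.4, 12.6, 6.51, and 15.9 TPM, so that its 2.44-fold difference with desflurane was against a low control and was 1.11-fold against the other control. *Glul*, glutamine synthetase, was at 397, 250.5, 285, and 358 TPM, and its 6 h levels overlapped with the controls. The ratio of *Glul* to *Cps1* was 0.440, 0.207, 0.291, and 0.232, lower in both 6 h libraries than in both controls. The ratio of *Glul* to *Gls2* was 5.22, 2.88, 4.41, and 4.33. The abundant glutamine transporter *Slc38a3* was at 870.2, 1029, 664, and 1021 TPM, and *Slc38a4* was at 407, 526, 411, and 514 TPM.

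Of 8 ammonia-releasing enzymes of amino acids, 2 were upregulated with sevoflurane, and 1 was upregulated and 1 downregulated with desflurane, with medians of 0.10 and 0.02. *Sds*, serine dehydratase, was at 28.9, 109, 20.2, and 44.6 TPM, that is, 3.77-fold and 2.21-fold higher, and 5.38-fold and 1.55-fold against the other control, so that desflurane then no longer passed. *Asrgl1*, an asparaginase, was at 7.07, 19.5, 19.0, and 8.89 TPM, so that it passed in opposite directions with the agents and the controls differed from each other by more than the 6 h libraries did. Of 13 genes of ornithine and arginine use, *Aldh18a1*, which makes pyrroline-5-carboxylate for proline and ornithine synthesis, and the arginine transporter *Slc7a1* were upregulated with sevoflurane, and *Aldh18a1* was downregulated with desflurane. Their levels were low, at 1.19, 3.24, 2.42, and 1.06 TPM for *Aldh18a1* and 1.08, 4.50, 1.41, and 0.88 TPM for *Slc7a1*. The controls of *Aldh18a1* differed by 2.04-fold, and against the other control its fold changes of 1.34 and 0.891 did not pass. *Oat*, ornithine aminotransferase, was at 148, 181, 123, and 106 TPM. The medians of this list were 0.31 and 0.08.

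Of 13 regulators of urea cycle genes, 1 was downregulated with sevoflurane and 2 were upregulated with desflurane, with medians of -0.05 and 0.11. *Ppargc1a*, a coactivator induced in the fasting liver, was at 4.23, 5.08, 2.90, and 13.5 TPM, and was 4.64-fold higher with desflurane. *Klf15*, a factor that controls amino acid catabolism, was at 61.3, 60.5, 31.7, and 66.6 TPM, so that its 2.1-fold difference with desflurane rested on its low level in the desflurane control. *Foxa2* was at 30.5, 12.7, 44.5, and 22.9 TPM, lower in both 6 h libraries, and its fold change of 0.416 with sevoflurane passed the limits while 0.514 with desflurane did not. *Hnf4a* was at 246, 226, 199, and 216 TPM, *Creb3l3* was at 318, 378, 247, and 422 TPM, and *Cebpb* was at 111, 164, 124, and 126 TPM.

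Genes of the response to fasting and glucagon are given beside the cycle enzymes. Of 9 genes, 3 were upregulated with sevoflurane and 5 with desflurane, the median changes were 0.54 and 1.2 (1.13 and 0.96 against the other control), and 6 were above both controls in both 6 h libraries, where all genes had 33.3% (22.4% after median-of-ratios scaling). The sum of the list was 3331, 4096, 2357, and 4794 TPM. *Cpt1a*, of fatty acid oxidation, was at 124, 329, 99.6, and 435 TPM, and *Igfbp1* was at 35.1, 74.7, 7.94, and 136 TPM, both without overlap. *Fgf21*, a hormone of the fasted liver, was at 12.2, 121, 41.3, and 24.5 TPM, 9.98-fold higher with sevoflurane but with a fold change of 0.593 with desflurane. Its controls differed by 3.40-fold. Against the other control, the folds of *Fgf21* were 2.94 and 2.01, so that it then passed as upregulated with both agents. *Pdk4*, which limits the use of pyruvate, was at 40.8, 26.6, 71.4, and 80.3 TPM, with fold changes of 0.653 and 1.12. Its controls differed by 1.75-fold. Against the other control, the fold changes of *Pdk4* were 0.373 and 1.97, so that it then passed as downregulated with sevoflurane. *Pck1*, of gluconeogenesis, was at 1079, 980.4, 414, and 951 TPM, so that its 2.30-fold difference with desflurane was against a control that was low. The part of food withdrawal in the levels of the cycle enzymes was not tested.

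Because the cycle is periportal, zonation genes were examined in the same way. The 7 periportal genes added up to 2019, 1974, 1278, and 2294 TPM, and the 10 pericentral genes to 5396, 4232, 3442, and 5385 TPM, both overlapping between controls and 6 h libraries. The medians were -0.12 with sevoflurane and 0.27 with desflurane for periportal genes, and -0.15 and 0.15 for pericentral genes. Against the other control, the medians were 0.20 and 0.32 for periportal genes and 0.22 and -0.19 for pericentral genes, so that 3 of the 4 directions turned with the control. By these sums, both lists were lowest in the desflurane control, which was also the lower control for *Ass1*, *Asl*, *Arg1*, *Gls2*, *Glud1*, and *Otc*. Of the 7 periportal genes, 4 were lower in the desflurane control than in the sevoflurane control and 3 were higher. Of the 10 pericentral genes, 9 were lower and 1 was higher. The periportal gene *Pck1* was at 1079 TPM in the sevoflurane control and 414 TPM in the desflurane control. The T, NK, and B cell markers added up to 22.9, 7.43, 14.1, and 16.9 TPM. Of these sums, *Ptprc* alone held 13.7, 4.11, 9.24, and 10.9 TPM, and 3 of the 8 markers exceeded 2 TPM in any library. The endothelial markers added up to 190.4 to 229 TPM, and the stellate and fibroblast markers to 312 to 354 TPM. The cholangiocyte markers added up to 14.5 to 21.4 TPM, and the erythroid markers to 36.4 to 87.6 TPM.

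**Figure D4:**
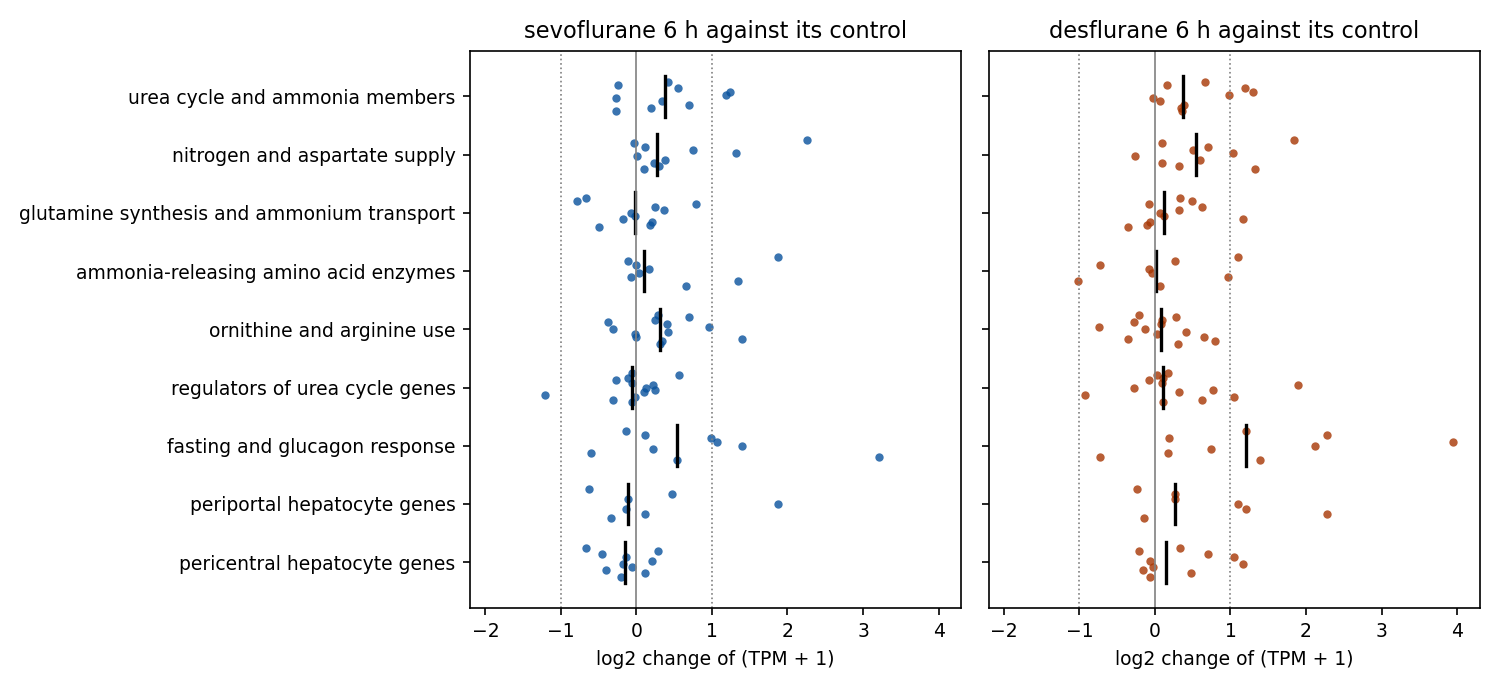
Changes of single genes on the log2(TPM + 1) scale with sevoflurane (left) and desflurane (right), each against its own control, for the 10 genes and 8 lists of related genes. Each point is 1 gene, vertical bars are the medians of the lists, and dotted lines mark 2-fold. The bars of the 10 genes are at 0.38 and 0.37, and those of the fasting and glucagon response at 0.54 and 1.2.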

How the data were processed

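Reads from 4 libraries (1 rat each) were trimmed, mapped to rn6 with HISAT2, sorted with SAMtools, and assembled with StringTie by the authors, who deposited a table per library. The deposited average coverage is a signal over the exons of a gene, not normalized for library size, and the deposited FPKM values were normalized for library size by the authors. The TPM column deposited by the authors is a signal scaled so that assembled rows add up to 1000000, and the annotated rows add up to 779824 to 813454 on this scale. Here, annotated rows longer than 200 base pairs were kept (495 to 518 shorter rows were removed per library) and TPM was summed per gene symbol. A gene was called with a TPM higher than 2 in the higher library and a ratio to the control above 2, which is the rule of the study. The comparison of an agent with its control was not tested, having 1 library on each side. Both 6 h libraries were compared with both controls by limma 3.58.1 (R 4.3.3) with a trend on log2(TPM + 1), Benjamini-Hochberg adjustment, and a threshold of 0.05, a fit added after seeing the data. Medians of lists used a pseudocount of 1 TPM. No read counts were used, and precision is known only through the coverage. The labels and the study name different kits for library preparation. The genes and lists were chosen with earlier results of these data known. Named genes of lists were those past the limits and the 2 most abundant, and *Glul*, *Oat*, *Cebpb*, and the acinar genes were picked with their values in view. Promoters were taken from RefSeq (GRCr8), another build than that of the files, and matched by symbol. Alternatives covered the control, scaling, limits, pseudocount, FPKM, coverage, and assembled rows. Python 3.11.15, numpy 2.4.6, pandas 2.3.3, and matplotlib 3.10.9 were used.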

Additional observations from a re-analysis of the deposited data

Results flagged for a closer look

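*Otc* and *Glud1* differed from their own controls in opposite directions with the agents. The log2 change of *Otc* was -0.25 with sevoflurane and 0.16 with desflurane, and that of *Glud1* was -0.27 and 0.35, each against its own control. Whether the agents differed was not tested, and against the other control *Otc* was at -0.08 and -0.01 and *Glud1* at 0.04 and 0.04.

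Rows assembled by StringTie, which are not part of the values above, extended beyond the annotated genes. A row over *Ass1* began between 6903 and 7251 bases before the annotated start in all 4 libraries, at 745, 1206, 524, and 1546 TPM. A row over *Slc25a15* began between 27481 and 27645 bases before the annotated start in all 4 libraries, at 134, 241, 141, and 203 TPM. In both cases the 6 h libraries were above the controls. A row on the strand opposite to *Arg2* (chr6:102335515-102335807) was present in the sevoflurane control at 1.17 TPM, more than *Arg2* itself. A row without a strand lay within *Cps1* (chr9:74115884-74117389) in the sevoflurane 6 h library at 4.10 TPM.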

How the results depend on the processing

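The number of members upregulated with sevoflurane (2) was 0 with a fold limit of 3, and the number downregulated (0) was 1, *Arg2*, with no TPM limit. The number upregulated with desflurane (2) was 1 against the other control, 1 against the mean of both controls, 4 with a fold limit of 1.5, and 0 with a fold limit of 3. The median change of the members with desflurane (0.37) was 0.22 by average coverage, 0.24 after median-of-ratios scaling, and 0.25 without rRNA genes. Both 6 h libraries were above both controls for 6 genes after median-of-ratios scaling (22.4% of all genes), 5 by FPKM, and 5 when a gap of 1.2-fold was required. The share of all genes was not computed for FPKM, the gap, the mean of both controls, or the other limits, so these counts have no background. Of 158 recomputed changes of single genes, 6 changed sign: *Glud1* with sevoflurane (0.04) and *Otc* with desflurane (-0.01) against the other control, and *Nags* with desflurane after median-of-ratios scaling (-0.06), without rRNA genes (-0.04), by FPKM (-0.01), and by coverage (-0.08). In the limma fit of both 6 h libraries against both controls, which was added after seeing the data, 6 genes passed an adjusted p of 0.05, and 1 passed with the agent as a replicate block, which pairs each 6 h library with its control, while 0 of the 9 members passed in either. With 1 library left out, 5 to 78 genes passed (13 without the sevoflurane control, 27 without sevoflurane 6 h, 78 without desflurane 6 h), 0 to 2 members passed (2 without desflurane 6 h, *Asl* and *Arg1*), and 3 to 5 members passed at an unadjusted p of 0.05 (5 in the full fit, 5 with the block, 3 without the sevoflurane control). With assembled rows, an alternative chosen after seeing the data, *Asl* was 5.09-fold higher with desflurane. This was because the assembled row of the desflurane control held 52.8% of the annotated TPM. *Arg1* passed the limit with desflurane at 2.002-fold. On the same rows, *Ass1* was 2.95-fold higher with desflurane and 2.07-fold higher against the other control, so that it passed against both. With sevoflurane, *Ass1* was 1.62-fold higher, and 2.30-fold higher against the other control.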
